A study of Mus musculus with 11 samples.

Results

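The genes described here are 9 genes by which mast cells are recognised in mouse skin: Mcpt4, Cma1, Cpa3, Tpsb2, Tpsab1, Kit, Ms4a2, Fcer1a and Hdc. They were chosen as markers of this cell type, and every probe set annotated to one of them alone was taken, 13 of the 45101 on the array. The brightest probe set of each gene over all arrays carries the main value. After a filter on dim genes, 7 of the 9 were left among 13710 of 18194 genes, and Hdc and Fcer1a fell below it.

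The series measured RNA from whole mouse skin after the mice were dosed with ABBV-075, also named mivebresib, a compound that blocks BET proteins from reading acetylated histones. There were 4 skin samples taken 6 h after 1 mg/kg ABBV-075, 4 taken 24 h after the same dose and 3 from mice given vehicle, each on 1 Affymetrix array. The sources used here do not state the strain, sex or age of the mice, the skin site, whether mice were pooled, or when vehicle skin was collected.

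Mast cells are resident immune cells of the dermis that mature in the tissue under the Kit ligand, stem cell factor. They store histamine and proteases with heparin in their granules and release them when antigen crosslinks IgE on the high-affinity receptor FcεRI. In connective tissue such as skin, the mouse granule proteases are the chymases, the tryptases and carboxypeptidase A3. Because whole skin was measured, fewer mast cells and less RNA per mast cell cannot be told apart in these values.

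Hexim1, whose transcript is a reported response marker of BET inhibitors, averaged 9.90 at 6 h and 8.80 in vehicle skin on the log2 scale, a difference of 1.10 ± 0.17 (SE, limma adjusted p = 0.0638), and differed by 0.0062 at 24 h. Keratinocyte and fibroblast genes (Krt5, Krt14, Lor, Col1a1 and Col3a1) lay at or above the 97.0th percentile on every array, as the skin label implies. The arrays differed in quality: the trimmed mean of the deposited intensities ran from 82.8 to 243.7 at 6 h, from 116 to 183 at 24 h and from 205 to 244 in vehicle skin. The 5′ to 3′ signal ratio of beta-actin, which is low where RNA is shortened, was 0.0725 to 0.425 at 6 h, 0.198 to 0.529 at 24 h and 0.484 to 0.593 in vehicle skin, and under 0.3 on 3 arrays (6 h replicates 3 and 5, 24 h replicate 2). The same ratio for Gapdh was low only on 6 h replicate 5, at 0.104, and ran from 0.684 to 1.08 on the other arrays.

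Values below are log2(intensity + 16) after quantile normalization, so 4.00 is the floor, and differences on this scale understate the change of dim genes. No mast cell gene passed the test at either time. At 6 h, 0 of the 7 genes had a limma adjusted p under 0.05, where 0% of the 13710 genes did, and 0 of 7 had an unadjusted p under 0.05, against 16.1% of all genes. At 24 h the counts were again 0 of 7 by adjusted p (0% of all genes) and 0 of 7 by unadjusted p (7.63% of all genes). Their differences from vehicle nonetheless lay mostly on one side: 6 of 7 were negative at 6 h with a median of -0.47, and 7 of 7 at 24 h with a median of -0.78. Over all genes tested the medians were 0.0037 and -0.020, with 49.6% and 52.4% of differences negative. Without 24 h replicate 4, 6 of the 7 mast cell genes were negative at 24 h, with a median of -0.40. The 6 h and 24 h comparisons share the 3 vehicle arrays. An alternative fit with replicate number as a block gave 7 of 7 and -0.74 at 6 h. Same-numbered vehicle and 6 h arrays did not behave as pairs, with correlations of -0.12 and -0.07.

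Groups that did not overlap were found for 2 of the 7 genes at 6 h, Mcpt4 and Cma1, both lower than vehicle, and for 0 of 7 in the other direction. Among all genes tested, 8.77% had every 6 h array below vehicle and 9.77% every 6 h array above. At 24 h Mcpt4 and Kit lay below all vehicle arrays, again 2 of 7, and 0 of 7 lay above. The shares over all genes at 24 h were 6.02% below and 5.09% above. The other 5 genes overlapped with vehicle at each time.

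**Figure D1:**
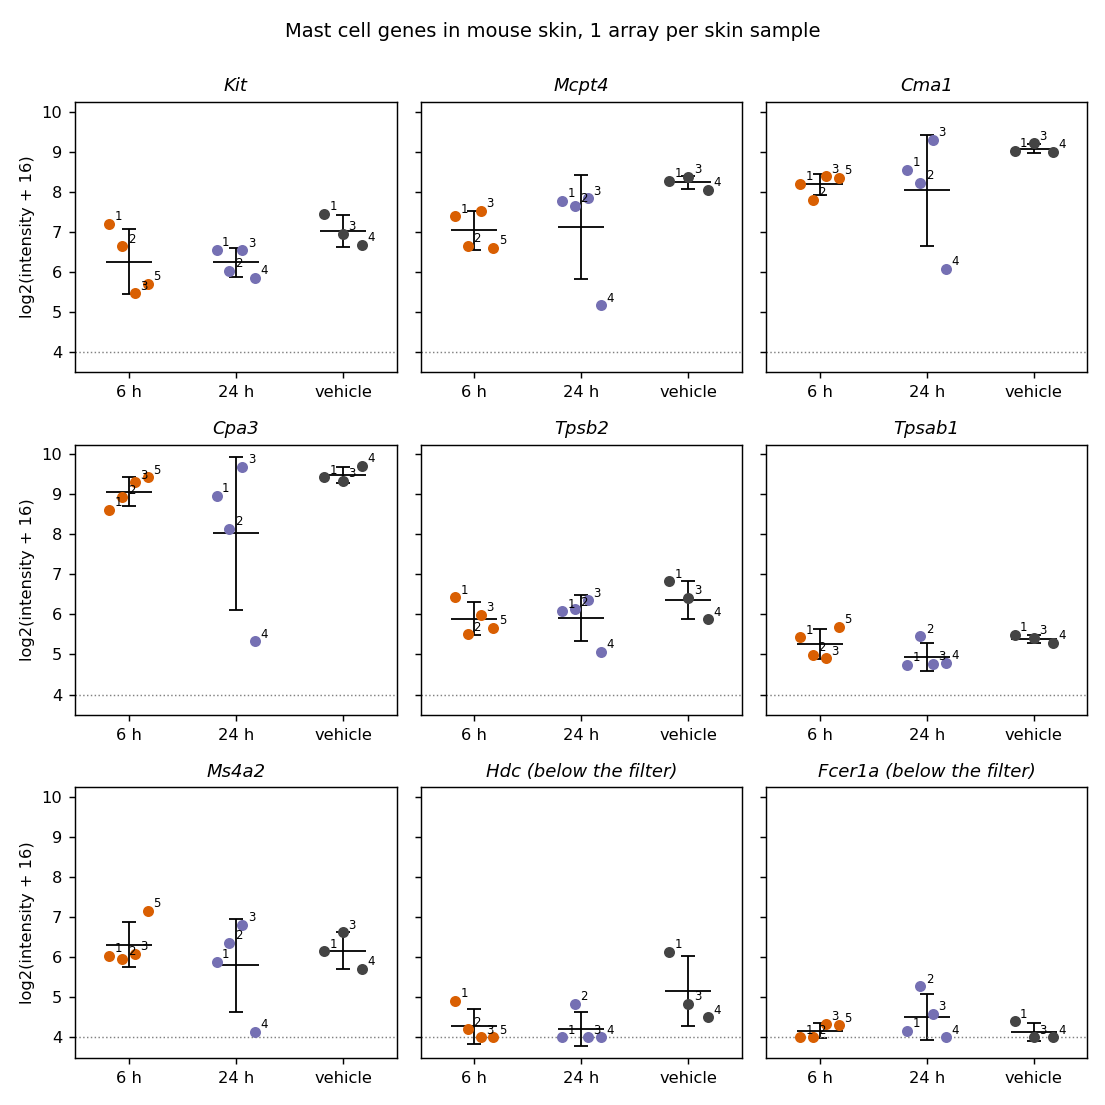
Each panel plots one mast cell gene, with the log2(intensity + 16) of every array on the vertical axis and the groups from left to right as 6 h, 24 h and vehicle. Points are arrays with their replicate numbers, bars are mean ± SD, and the dotted line is the floor of 4. Every 6 h value of Mcpt4 and Cma1 sits below every vehicle value. The lowest 24 h array for Kit, Mcpt4, Cma1, Cpa3, Tpsb2 and Ms4a2 is replicate 4, which is at the floor for Hdc and Fcer1a.

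The chymases are serine proteases, most of which cut after aromatic residues. Mcpt4 encodes the mouse chymase regarded as the functional counterpart of human chymase, and Cma1 encodes mouse mast cell protease-5, which cuts like an elastase. Both genes lie on chromosome 14 in the chymase cluster, with 6 annotated genes between them. Cpa3, on chromosome 3, encodes carboxypeptidase A3, which trims peptides from their C-terminal end and is stored together with mast cell protease-5. The start regions of all 3 genes hold a word bound by the GATA factors, of which GATA1 and GATA2 are known regulators of mast cell genes. They are printed from RefSeq (GRCm38.p6, minus strand), from 250 bases before to 50 after the annotated start. These genes had the most negative mean 24 h differences of the 7 tested, described next, and 24 h replicate 4 sets the size of each. Capitals mark the GATA word. The windows are chr14:56062261-56062560 for Mcpt4, chr14:55944626-55944925 for Cma1 and chr3:20242132-20242431 for Cpa3.
Mcpt4: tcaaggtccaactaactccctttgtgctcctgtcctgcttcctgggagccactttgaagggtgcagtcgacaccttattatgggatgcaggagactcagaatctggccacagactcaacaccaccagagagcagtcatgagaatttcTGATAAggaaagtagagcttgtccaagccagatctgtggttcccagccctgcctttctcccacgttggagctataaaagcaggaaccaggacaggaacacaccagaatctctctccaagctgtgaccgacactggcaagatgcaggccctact
Cma1: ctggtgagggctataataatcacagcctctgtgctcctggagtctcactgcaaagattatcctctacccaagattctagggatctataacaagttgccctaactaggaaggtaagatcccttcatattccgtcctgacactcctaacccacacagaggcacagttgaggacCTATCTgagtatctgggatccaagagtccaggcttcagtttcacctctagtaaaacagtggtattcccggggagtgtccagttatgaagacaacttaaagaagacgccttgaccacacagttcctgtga
Cpa3: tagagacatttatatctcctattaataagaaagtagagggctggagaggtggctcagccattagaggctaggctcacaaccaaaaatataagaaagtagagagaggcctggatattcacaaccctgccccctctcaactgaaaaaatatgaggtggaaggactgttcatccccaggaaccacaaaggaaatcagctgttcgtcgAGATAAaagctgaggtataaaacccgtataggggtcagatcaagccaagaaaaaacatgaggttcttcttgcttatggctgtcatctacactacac

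The word begins at position -103 of Mcpt4 (TGATAA), -79 of Cma1 (CTATCT, the reverse complement of AGATAG) and -46 of Cpa3 (AGATAA), counted from the start site. A TATAAA box begins at -32 in Mcpt4 and -31 in Cpa3. The GATA words searched on both strands were AGATAA along with AGATAG, and TGATAA along with TGATAG. No GATA match overlapped a match of TATAAA or of CATGTG. At least one occurs in 29.8% of 32851 promoter windows of the same length, and in those of 6 of the 7 mast cell genes with a promoter entry (Mcpt4, Cma1, Cpa3, Ms4a2, Hdc and Fcer1a, but not Kit). TATAAA was found in 3 of the 7 and in 13.6% of all windows, and CATGTG, an E-box, in 1 of the 7, Fcer1a, and in 14.2%. Such matches describe the letters only.

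Mcpt4 read 7.39, 6.65, 7.52 and 6.60 in 6 h replicates 1, 2, 3 and 5. At 24 h it read 7.77, 7.65, 7.84 and 5.16 in replicates 1 to 4, and in vehicle skin 8.27, 8.37 and 8.04 in replicates 1, 3 and 4. All 8 treated arrays lay below all 3 vehicle arrays, and the share of all genes so placed at both times was not counted. The 6 h mean was 7.04 ± 0.48 (SD, n = 4) against 8.23 ± 0.17 (SD, n = 3) in vehicle skin, a difference of -1.19 ± 0.56 (SE, limma adjusted p = 0.328), or 2.29-fold lower. At 24 h the mean was 7.11 ± 1.30 (SD, n = 4), a difference of -1.12 ± 0.56 from vehicle (limma adjusted p = 0.661). An exact two-sided permutation test over the arrays gave p = 0.0571 at each time, the smallest that 4 arrays against 3 allow.

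The size of the 24 h difference rests on 1 array, since without 24 h replicate 4 it was -0.48. That the 3 other 24 h arrays lay below vehicle follows from the separation of the whole group. Without that array 9.88% of all genes were so placed. Other settings brought Mcpt4 past the threshold at 6 h. Without normalization between arrays the difference was -1.99 (limma adjusted p = 0.0391), where the median of all genes stood at -0.68 and 6.27% of genes were called. With array weights it was -1.39 (limma adjusted p = 0.0126), where 18.2% of genes were called. Over its 26 alternatives the 6 h difference was negative each time, and the adjusted p ran from 0.0126 to 0.601.

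Cma1 read 8.20, 7.80, 8.38 and 8.34 in 6 h replicates 1, 2, 3 and 5. At 24 h the values were 8.54, 8.22, 9.30 and 6.07 in replicates 1 to 4, against 9.02, 9.21 and 9.0 in vehicle skin. The 6 h arrays were all below the vehicle arrays, whereas at 24 h replicate 3 was above them and replicate 4 far below. The difference was -0.89 ± 0.57 at 6 h (limma adjusted p = 0.465, 1.86-fold lower) and -1.05 ± 0.57 at 24 h (limma adjusted p = 0.679). The exact two-sided permutation p at 6 h was 0.0571, again the smallest possible. With array weights the 6 h difference was -1.16 (limma adjusted p = 0.0263), where 18.2% of all genes were called. Over the 26 alternatives the adjusted p ran from 0.0263 to 0.681. Without 24 h replicate 4 the 24 h difference was -0.39.

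Cpa3 did not separate the 6 h group. It read 8.62, 8.93, 9.30 and 9.42 in 6 h replicates 1, 2, 3 and 5, then 8.96, 8.14, 9.68 and 5.32 in 24 h replicates 1 to 4, against 9.42, 9.33 and 9.72 in vehicle skin. The 6 h difference was -0.42 ± 0.78 (limma adjusted p = 0.814), smaller than its error. With the replicate block it was -1.06 (limma adjusted p = 0.536), although same-numbered vehicle and 6 h arrays did not behave as pairs. Without 6 h replicate 1 the 6 h difference was -0.28. At 24 h the mean was 8.03 ± 1.91 (SD, n = 4) against 9.49 ± 0.20 (SD, n = 3) in vehicle skin, a difference of -1.46 ± 0.78 (limma adjusted p = 0.671). That mean rests on replicate 4, whose deposited intensity was 23.0 against 199.9 to 563 on the 3 other 24 h arrays and 952 to 1022 in vehicle skin. Without it the 24 h difference was -0.56, and without 24 h replicate 3 it was -2.01.

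The tryptases are trypsin-like proteases that assemble into tetramers on heparin. The main Tpsb2 probe set was above the filter level on 10 of 11 arrays and the Tpsab1 probe set on 6. Tpsb2 encodes mouse mast cell protease-6 and Tpsab1 encodes mouse mast cell protease-7. The genes are neighbours on chromosome 17 with 0 annotated genes between them, and RefSeq lists Tpsab1 of the C57BL/6J assembly as a transcribed pseudogene. Their transcripts are alike, and signal shared between their probe sets was not tested.

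Tpsb2 read 6.43, 5.51, 5.99 and 5.66 in 6 h replicates 1, 2, 3 and 5. It read 6.07, 6.13, 6.35 and 5.07 in 24 h replicates 1 to 4, against 6.82, 6.42 and 5.88 in vehicle skin. The groups overlapped, with a difference of -0.47 ± 0.34 at both 6 h (limma adjusted p = 0.520) and 24 h (limma adjusted p = 0.742). At 24 h it was -0.19 without 24 h replicate 4, -0.24 without vehicle replicate 1 and -0.71 without vehicle replicate 4. At 6 h it was -0.25 without vehicle replicate 1 and -0.72 without vehicle replicate 4. The second Tpsb2 probe set ran the other way. It read 4.97, 5.22, 4.68 and 6.15 at 6 h and 5.27, 5.18, 5.77 and 5.32 at 24 h, against 4.98, 4.66 and 4.53 in vehicle skin. There the 24 h arrays were all higher than the vehicle arrays, by 0.66 ± 0.32 on average, and the 6 h difference was 0.53 ± 0.32. Neither passed the test over all probe sets (limma adjusted p = 0.636 and 0.505). Averaged over both probe sets, the Tpsb2 difference was 0.029 at 6 h and 0.099 at 24 h, so its direction depends on the probe set.

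Tpsab1 read 5.43, 4.98, 4.90 and 5.69 at 6 h and 4.75, 5.46, 4.77 and 4.79 at 24 h, against 5.49, 5.42 and 5.29 in vehicle skin. Replicates 1, 3 and 4 at 24 h sat together below vehicle and replicate 2 sat among the vehicle values. The differences were -0.15 ± 0.24 at 6 h (limma adjusted p = 0.791) and -0.46 ± 0.24 at 24 h (limma adjusted p = 0.669). Leaving out each array in turn gave -0.29 (without 6 h replicate 5) to -0.029 (without 6 h replicate 3) at 6 h.

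Kit encodes the receptor tyrosine kinase for stem cell factor, on which mast cell survival depends, and melanocytes use it too. Its main probe set read 7.20, 6.63, 5.46 and 5.70 in 6 h replicates 1, 2, 3 and 5. The 24 h arrays read 6.55, 6.03, 6.54 and 5.84 in replicates 1 to 4, against 7.44, 6.95 and 6.66 in vehicle skin. All 24 h arrays lay below all vehicle arrays, by -0.78 ± 0.39 on average (limma adjusted p = 0.661, exact two-sided permutation p = 0.0571). Without 24 h replicate 4 the difference was -0.65, and leaving out each array in turn gave -0.96 to -0.57.

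At 6 h the Kit difference was -0.77 ± 0.39 (limma adjusted p = 0.363), and the 2 low arrays, replicates 3 and 5, are also 2 of the 3 arrays with a beta-actin ratio under 0.3. The Gapdh ratio was low in replicate 5 (0.104) but not in replicate 3 (0.711). Without the 3 arrays of low beta-actin ratio the 6 h difference of Kit was -0.11, and with the ratio as a covariate it was -0.32. Mcpt4 without these arrays differed by -1.21 at 6 h and Cma1 by -1.08. Only replicates 1 and 2 then stood for 6 h. Their means relative to vehicle were 1.26 and 1.06 for basal keratinocyte markers and -1.32 and -1.49 for adipocyte markers, so RNA quality and tissue make-up are not separated by this fit. The second Kit probe set lay between 4.08 and 5.12 on all arrays and was -0.030 from vehicle at 6 h and -0.086 at 24 h. Markers of melanocytes, the other Kit-bearing cells, had a summed intensity of 590 to 1109 at 6 h, 434 to 1185 at 24 h and 378 to 672 in vehicle skin. Of the 6 melanocyte genes kept, 5 differed upward at each time, with a median of 0.25 at 6 h and 0.36 at 24 h, and 0 of them passed the test.

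Of the IgE receptor subunits, Ms4a2 encodes the beta chain, which amplifies the signal, and Fcer1a the alpha chain, which holds IgE. Ms4a2 read 6.04, 5.97, 6.08 and 7.16 at 6 h and 5.88, 6.36, 6.81 and 4.14 at 24 h, against 6.15, 6.62 and 5.70 in vehicle skin. Of the 7 tested genes it alone had a positive 6 h difference, 0.15 ± 0.55 (limma adjusted p = 0.915), and without 6 h replicate 5 it was -0.13. The 24 h difference was -0.36 ± 0.55 (limma adjusted p = 0.877) and became 0.19 without replicate 4. Its second probe set read between 4.00 and 5.47 over the arrays and differed by -0.27 at 6 h and -0.50 at 24 h.

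Fcer1a was at or near the floor. It read 4.00, 4.00, 4.34 and 4.30 at 6 h and 4.17, 5.27, 4.58 and 4.00 at 24 h, against 4.40, 4.00 and 4.00 in vehicle skin. Only 1 of 11 arrays was above the filter level of 5.21, so the alpha chain was not measurable on most arrays.

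Hdc encodes histidine decarboxylase, the enzyme that makes histamine. It read 4.92, 4.20, 4.00 and 4.00 at 6 h and 4.00, 4.83, 4.00 and 4.00 at 24 h, against 6.14, 4.84 and 4.50 in vehicle skin. The highest value and the only one above the filter level was vehicle replicate 1, and 5 of the 8 treated arrays sat at the floor. In a fit without the filter the differences were -0.88 ± 0.41 at 6 h (limma adjusted p = 0.354) and -0.95 ± 0.41 at 24 h (limma adjusted p = 0.610). The second Hdc probe set was above the floor on 1 array, vehicle replicate 1, at 4.42.

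**Figure D2:**
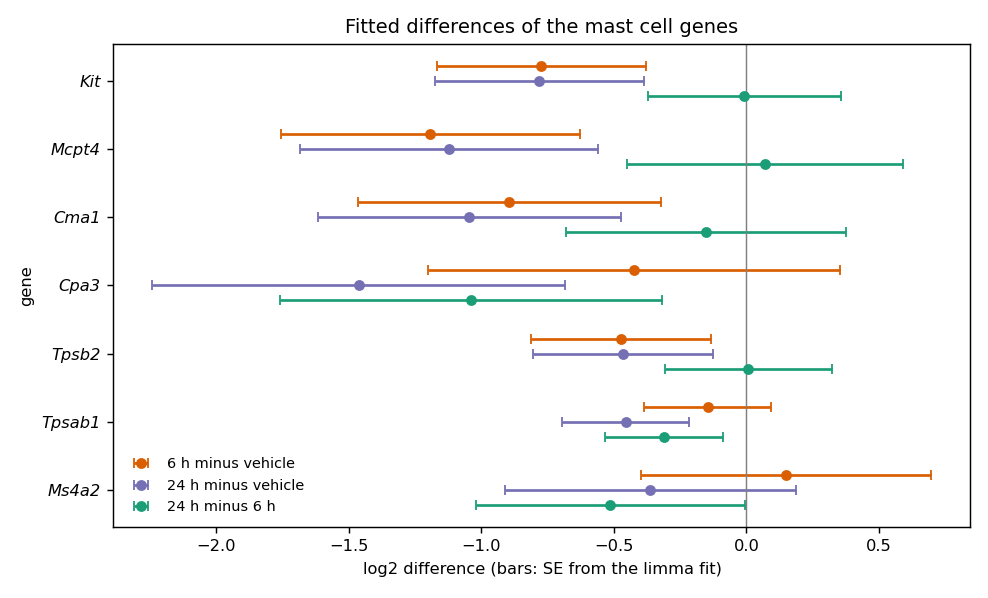
For each of the 7 genes tested, the horizontal axis gives the log2 difference ± SE from limma for each time against vehicle and for 24 h against 6 h, with a line at 0. All 7 points of 24 h minus vehicle are below 0, and of the 6 h minus vehicle points only Ms4a2, at 0.15, is above.

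Between 24 h and 6 h no mast cell gene passed the test either. In this contrast 0 of 7 genes had a limma adjusted p under 0.05 (0% of all genes) and 0 of 7 an unadjusted p under 0.05 (9.27% of all genes). No gene separated the groups, where 3.54% of all genes had every 24 h array below every 6 h array and 1.92% above. Kit, Mcpt4 and Tpsb2 had nearly the same mean at both times, with differences of -0.0072 ± 0.36, 0.069 ± 0.52 and 0.0081 ± 0.32. For Mcpt4 and Tpsb2 this rests on 24 h replicate 4, without which the differences were 0.72 and 0.29. Cpa3 differed by -1.04 ± 0.72 (limma adjusted p = 0.723), and by -0.14 without 24 h replicate 4. The median difference of the 7 genes was -0.15, and 0.13 without that array.

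Taken array by array, the set gave the following levels. The mean of the 7 genes, relative to the vehicle mean, was -0.35, -0.75, -0.59 and -0.45 in 6 h replicates 1, 2, 3 and 5. At 24 h it was -0.46, -0.54, -0.065 and -2.19 in replicates 1 to 4, and in vehicle skin 0.12, 0.083 and -0.21. The 6 h arrays were thus alike and all below vehicle, while the 24 h arrays ranged from near vehicle in replicate 3 to far below in replicate 4. In 24 h replicate 4 all 7 genes were below the lowest vehicle array. The count was 3 to 5 of 7 on the other 24 h arrays and 3 to 6 of 7 on the 6 h arrays. The share of all genes so placed on each array was not counted, so these counts cannot be read as particular to the mast cell genes. Relative to the vehicle mean, 24 h replicate 4 stood at -4.17 for Cpa3, -3.07 for Mcpt4 and -3.01 for Cma1. It stood at -2.02 for Ms4a2, -1.30 for Tpsb2, -1.18 for Kit and -0.61 for Tpsab1.

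**Figure D3:**
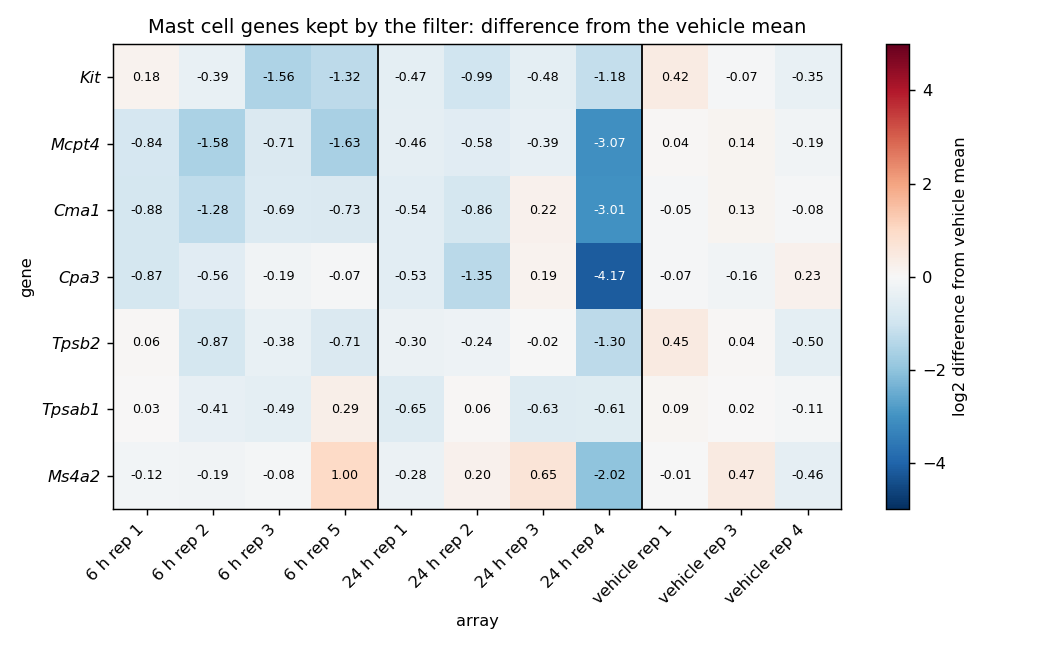
Rows are the 7 genes kept by the filter and columns the 11 arrays, ordered 6 h, 24 h and vehicle; colour gives the log2 difference from the mean of the vehicle arrays. The darkest cells are Cpa3, Mcpt4 and Cma1 in 24 h replicate 4, at -4.17, -3.07 and -3.01.

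Markers of other skin cells also differed on these arrays. In 24 h replicate 4 the mean of the 10 fibroblast genes was -1.81 from the vehicle mean, that of the 12 macrophage genes -2.78, of the 10 endothelial genes -1.32 and of the 9 adipocyte genes -2.41. The 8 basal keratinocyte genes were at 1.91 and the 10 skeletal muscle genes at 0.79 on that array. At 6 h, replicates 1 and 2 showed the same arrangement to a lesser degree, with basal keratinocyte means of 1.26 and 1.06, adipocyte means of -1.32 and -1.49 and fibroblast means of -0.65 and -0.63. The part of tissue make-up in the mast cell values was not tested.

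Over the groups, 10 of 10 fibroblast genes differed downward at both times (medians -0.38 at 6 h and -0.59 at 24 h), as did 12 of 12 macrophage genes (-1.08 and -0.95) and 9 of 9 adipocyte genes (-0.98 and -0.78). Endothelial genes did so in 10 of 10 at 6 h and 9 of 10 at 24 h (-0.70 and -0.68), whereas 8 of 8 basal keratinocyte genes differed upward at both times (0.57 and 0.56). Of the 49 genes of these 5 lists, 0 passed the limma test at an adjusted p under 0.05 at either time, and 10 at 6 h and 6 at 24 h, all of them lower, had an unadjusted p under 0.05. Over all genes those shares were 16.1% and 7.63% in both directions together. The summed intensity of the 10 fibroblast genes was 50859 to 59507 at 6 h, 25450 to 61960 at 24 h and 62399 to 66771 in vehicle skin. That of the 9 mast cell genes was 938 to 1297 at 6 h, 167 to 1890 at 24 h and 1763 to 1864 in vehicle skin.

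The mast cell genes were also set against the fibroblast genes of the same array. The mean of the 7 genes minus the mean of the fibroblast genes, with vehicle at 0, was 0.048 ± 0.32 at 6 h (SD, n = 4) and -0.18 ± 0.27 at 24 h (SD, n = 4). Vehicle arrays ran from -0.23 to 0.14 on this scale, so neither treated group stood apart in this mean, although single genes lay on both sides of 0. Mcpt4 was -0.61 ± 0.36 at 6 h, with arrays from -0.96 to -0.19, and -0.49 ± 0.53 at 24 h, with arrays from -1.26 to -0.11. Its vehicle arrays ran from -0.21 to 0.20, so Mcpt4 overlapped with vehicle on this scale at both times. At 6 h the overlap was narrow, with replicate 1 at -0.19 against vehicle replicate 4 at -0.21. The other 6 h arrays ran from -0.96 to -0.44. Cma1 was -0.31 ± 0.30 at 6 h, against vehicle arrays between -0.10 and 0.19, and -0.41 ± 0.67 at 24 h. Cpa3 was 0.16 ± 0.40 at 6 h and -0.83 ± 1.15 at 24 h. Ms4a2 was 0.74 ± 0.71 at 6 h, with arrays from 0.19 to 1.78, and its vehicle arrays ran from -0.48 to 0.53. Tpsab1 was 0.44 ± 0.56 at 6 h and 0.18 ± 0.84 at 24 h.

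**Figure D4:**
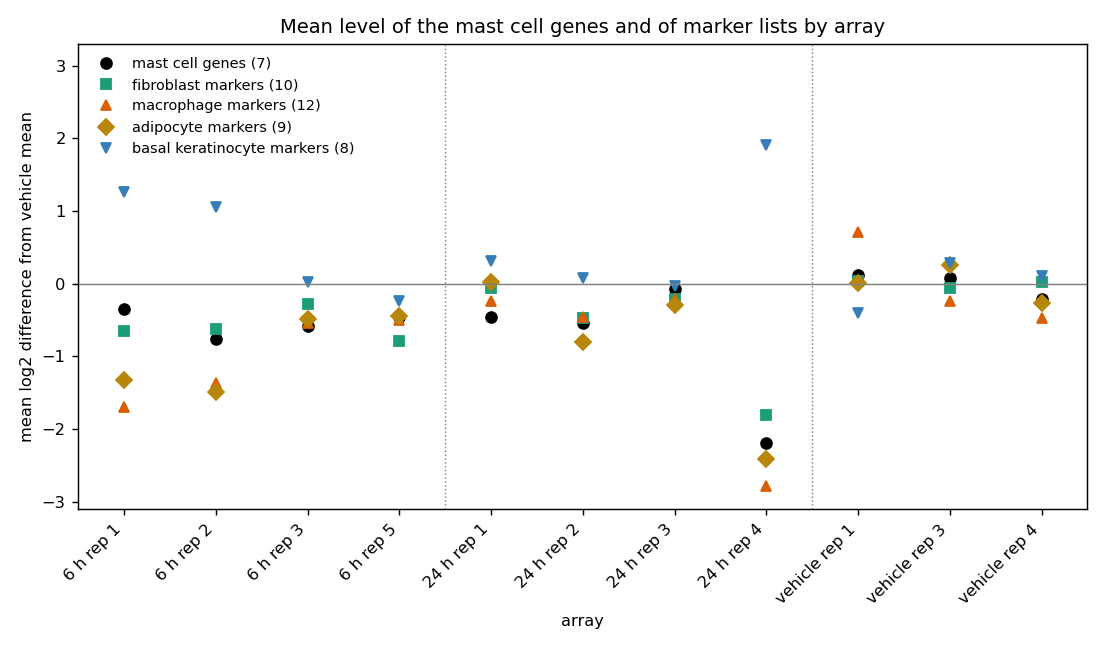
The vertical axis gives the mean log2 difference from the vehicle mean of the mast cell genes and of other cell type lists, for each array in the order 6 h, 24 h and vehicle. In 24 h replicate 4 the mast cell mean is -2.19, with macrophage, adipocyte and fibroblast means also low and the basal keratinocyte mean high at 1.91.

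Of the other granulocytes, basophils share Fcer1a, Ms4a2 and Hdc with mast cells, but only 1 of their 5 listed genes was kept (Itga2, a collagen receptor subunit), and their protease gene Mcpt8 was at 0 on all vehicle arrays. The summed basophil intensity was 20.7 to 43.9 at 6 h, 33.1 to 64.1 at 24 h and 34.0 to 64.4 in vehicle skin. None of the eosinophil genes was kept. Of 8 listed neutrophil genes, 5 were kept, 2 with a negative and 3 with a positive difference at 6 h (median 0.45) and 3 negative and 2 positive at 24 h (median -0.11). Their summed intensity was 181 to 1614 at 6 h, highest in replicate 5, then 169 to 453 at 24 h and 249.3 to 376.5 in vehicle skin. S100a8, a calcium-binding protein gene of neutrophils and stressed keratinocytes, averaged 8.46 at 6 h and 7.01 in vehicle skin (limma adjusted p = 0.388). The part of neutrophils in the mast cell values was not tested.

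The genes whose profiles over the 11 arrays lay nearest to the mean profile of the 7 mast cell genes, by root mean square distance of centred log2 values, were Dcn (0.176), Htra3 (0.182), Dpysl2 (0.186), Fstl1 (0.197) and Myh10 (0.198), where the median over all genes was 0.684. Dcn encodes decorin, a proteoglycan of the dermal matrix, and is one of the fibroblast markers above. The Dcn difference from vehicle was -0.32 at 6 h and -0.62 at 24 h, and that of Htra3, a secreted serine protease gene, was -0.74 and -0.95. When profiles were first scaled to equal spread, 1 of these 5, Htra3, remained among the nearest 5. Each member was also ranked by its distance from the mean of the 6 others among 13704 genes: Tpsb2 ranked 233, Cma1 306, Mcpt4 1707, Ms4a2 1764, Tpsab1 3105, Kit 4952 and Cpa3 11440. The profile of Cpa3 was thus farther from the others than most genes were, and with profiles scaled to equal spread it ranked 259.

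Further genes of mast cell function were taken from lists by role. Of 18 other granule genes, 9 were kept, and their differences were 5 negative and 4 positive at both times, with medians of -0.13 at 6 h and -0.11 at 24 h. Srgn encodes serglycin, the proteoglycan core that packs the proteases, and differed by -1.03 ± 0.56 at 6 h and -1.21 ± 0.56 at 24 h (limma adjusted p = 0.392 and 0.647). Srgn is also used by macrophages and other blood cells. Ctsc, encoding cathepsin C, which activates the granule proteases, differed by -0.94 and -1.04, and Ndst2, a heparin-sulfating enzyme gene, by -0.79 and -0.57. Rab27a, which guides granules to the membrane, differed by 0.070 and 0.68.

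Among enzymes of lipid mediator synthesis, 2 of the 7 kept, Ltc4s and Hpgds, had every treated array below vehicle at both times. With each time taken singly, 8.77% of all genes did so at 6 h and 6.02% at 24 h. The share that did so at both times was not counted. Ltc4s encodes leukotriene C4 synthase and read 5.67, 5.89, 6.33 and 4.00 in 6 h replicates 1, 2, 3 and 5. It read 6.70, 5.40, 6.66 and 5.52 in 24 h replicates 1 to 4, against 7.12, 7.23 and 7.04 in vehicle skin. The vehicle arrays lay close together above both treated groups, with differences of -1.66 ± 0.51 at 6 h (limma adjusted p = 0.190) and -1.06 ± 0.51 at 24 h (limma adjusted p = 0.653). Hpgds encodes the haematopoietic prostaglandin D synthase, the source of the main prostanoid of mast cells. It read 7.53, 7.37, 7.35 and 7.32 at 6 h and 7.87, 7.32, 7.97 and 7.34 at 24 h, against 8.37, 8.11 and 8.03 in vehicle skin. The 6 h arrays were alike and the 24 h arrays more spread, with differences of -0.78 ± 0.20 at 6 h (limma adjusted p = 0.147) and -0.54 ± 0.20 at 24 h (limma adjusted p = 0.582). Macrophages use both enzymes too. Of the 7 lipid mediator genes kept, 6 differed downward at 6 h (median -0.34) and 5 at 24 h (median -0.20).

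Of 17 genes of FcεRI and Kit signalling, 11 differed downward at 6 h (median -0.11) and 13 at 24 h (median -0.33). The adaptor gene Lat2 differed by -0.72 and -0.65 and Stat5b, a transcription factor gene downstream of Kit, by -0.51 and -0.33. Plcg1 (0.53 and 0.34) and Pik3cd (0.65 and 0.34), which encode lipid-signalling enzymes, were higher. The Pik3cd probe set was the brightest of the 17, at 12.9 at 6 h and 12.3 in vehicle skin. Whether its signal comes from Pik3cd alone was not tested. Of 8 transcription factor genes of the lineage, 5 differed downward at 6 h and 4 at 24 h. Lmo2 (-1.01 and -1.05) and Spi1 (-0.87 and -0.57) were among the lower ones, both also active in other blood cells or endothelium. Gata1, whose product binds the word printed above, differed by 0.44 ± 0.27 at 6 h and 0.11 ± 0.27 at 24 h. Its limma adjusted p was 0.444 and 0.931. Gata1 averaged 5.97 at 6 h, 5.63 at 24 h and 5.52 in vehicle skin, close to the filter level of 5.21. Gata2 differed by -0.027 and 0.016, and Tal1 by 0.28 and -0.13.

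Of 10 genes for surface receptors and activating cytokines, 8 differed downward at 6 h (median -0.52) and 7 at 24 h (median -0.30). Csf2rb, the shared beta chain of the interleukin-3 receptor family, differed by -0.61 and -0.70 and Il3ra, its alpha partner, by -0.38 and 0.31. Cadm1, an adhesion molecule gene used by mast cells and by epithelium, was higher by 0.89 ± 0.28 and 0.67 ± 0.28, without overlap at either time, as in 9.77% of all genes at 6 h and 5.09% at 24 h (limma adjusted p = 0.192 and 0.613). Il33 encodes a keratinocyte alarmin that activates mast cells. It read 8.51, 8.19, 8.03 and 8.60 at 6 h and 9.60, 9.24, 8.89 and 10.4 at 24 h, against 8.53, 9.37 and 9.16 in vehicle skin. Every 24 h array was above every 6 h array, by 1.20 ± 0.31 on average (limma adjusted p = 0.259), where 1.92% of all genes had groups so placed. The 3 histamine pathway genes kept (Hrh1, Hrh3 and Hnmt) differed downward at both times, with medians of -0.22 and -0.29. Of the 54 genes kept from these 6 lists, 0 had a limma adjusted p under 0.05 in any of the 3 contrasts, while an unadjusted p under 0.05 was found for 8 lower and 3 higher genes at 6 h, 6 lower and 2 higher at 24 h, and 0 lower and 2 higher for 24 h minus 6 h. Over all genes 16.1%, 7.63% and 9.27% had such a p.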

How the data were processed

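Whole-skin RNA of 11 samples was measured on 1 Affymetrix array each. A 3′ IVT Plus kit labelled 200 ng of RNA per sample, per the labels' protocols. The authors deposited linear probe set intensities, some of them below 0, and the software and scaling behind them are not stated in the sources used here. No array was a copy of another: at most 3 of the 45101 values were identical between 2 arrays. Precision is limited by how few arrays there are. Nothing says whether replicates came from separate mice beyond their labels as separate samples, so p-values measure only the spread between these samples.

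The deposited intensities were quantile-normalized between arrays, set to at least 0 and taken as log2(intensity + 16). The annotation gave 1 gene for 34958 probe sets, several for 932 and none for 9211; Entrez identifiers brought 34754 up to current symbols. The brightest probe set stood for a gene, and a gene was kept if it lay above the array's 40th percentile on at least 3 arrays. limma 3.58.1 in R 4.3.3 was fitted to 13710 genes over all 11 arrays, with Benjamini-Hochberg adjustment, a threshold of 0.05 and two-sided tests. A permutation test over arrays was added for single genes. The 9 genes, the other lists, the normalization and the tests were chosen with earlier results of these data known. Named genes are the 9 with all their probe sets, up to 4 genes of smallest p per list, the 5 genes nearest by profile, Gata2 and Hexim1.

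Replicate numbers in the labels were checked for pairing by the correlation of deviations from group means. Same-numbered vehicle and 24 h arrays gave 0.25, 0.13 and 0.21, all over 0.1, the criterion set for pairs. Same-numbered 6 h and 24 h arrays gave -0.06, -0.35 and 0.17, and vehicle and 6 h arrays -0.12 and -0.07. Differently numbered vehicle and 24 h arrays ran from -0.35 to 0.21, and some also passed 0.1. The highest value, 0.56, joined 6 h replicate 1 and 24 h replicate 4. The check therefore does not show that the numbers mark pairs, and the main fit used none. On simulated data made as 6 h minus vehicle with 13710 genes, 43.0% of 100 genes changed by 1 log2 unit and 81.0% of 100 changed by 2 were recovered, and 8 unchanged genes were called. The changed genes were picked at random, and noise was drawn independently for each gene and array. In the real data many genes shifted together on single arrays. The simulation therefore checks the fit and does not give the recovery rate for the mast cell genes. Alternatives covered normalization, pseudocount, filter, probe set choice, variance model, array weights, samples in the fit, each array left out, the beta-actin ratio and the replicate block. The counts of negative differences and of groups without overlap under these alternatives were added after seeing the data.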

Additional observations from a re-analysis of the deposited data

Results flagged for a closer look

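Of 17 gene and time combinations examined, each with 4 arrays, 3 had an array that stood apart from the 3 others by a gap near the whole range of the group. About 1 in 20 such groups is picked out by chance alone. Mcpt4 read 5.16 in 24 h replicate 4, where the other 24 h arrays read 7.65 to 7.84. Tpsab1 read 5.46 in 24 h replicate 2, where the others read 4.75 to 4.79. Ms4a2 read 7.16 in 6 h replicate 5, where the others read 5.97 to 6.08; this array had the lowest beta-actin ratio, 0.0725. Hdc at 24 h was not examined, because 3 of its 4 arrays were at the floor and any value above it would stand apart.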

How the results depend on the processing

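Leaving out each array in turn gave 0 mast cell genes past the threshold in all 11 fits of each contrast. The median difference then ran from -0.72 to -0.38 at 6 h, from -0.96 to -0.40 at 24 h and from -0.28 to 0.13 for 24 h minus 6 h. The number of the 7 genes with a negative difference ran from 6 to 7, 6 to 7 and 2 to 7. Genes that changed sign were Ms4a2 at 6 h (-0.13 to 0.38), Ms4a2 at 24 h (-0.70 to 0.19), and, for 24 h minus 6 h, Kit (-0.27 to 0.31), Mcpt4 (-0.17 to 0.72), Cma1 (-0.57 to 0.50), Tpsb2 (-0.14 to 0.29) and Ms4a2 (-0.85 to 0.040). Without normalization the 6 h contrast had 1 gene past the threshold (Mcpt4, -1.99), a median of -1.19 and Ms4a2 at -0.44, with 857 of all genes lower and 2 higher; for 24 h minus 6 h, Kit was then 0.049. Array weights ran from 0.270 for 24 h replicate 4 to 4.85 for vehicle replicate 3. They put 2 of the 7 genes past the threshold at 6 h (Mcpt4 and Cma1). With these weights 18.2% of all genes were called at 6 h, and 10.5% were called lower. Ms4a2 was then at -0.31. For 24 h minus 6 h the weights left 3 negative differences, with Cma1 at 0.58 and Ms4a2 at 0.039. The mean of all probe sets gave Tpsb2 0.029 at 6 h and 0.099 at 24 h, and Ms4a2 -0.061 at 6 h. Without the 3 arrays of low beta-actin ratio Ms4a2 was -0.16 at 6 h and, for 24 h minus 6 h, Mcpt4 was -0.093 and Tpsb2 -0.14; with the ratio as a covariate these were -0.36, -0.011 and -0.040. For 24 h minus 6 h, Kit was 0.0018 under median scaling and 0.023 with a pseudocount of 4, and Tpsb2 was -0.061 under cyclic loess and -0.010 with that pseudocount. With the replicate block, 0 genes passed in any contrast and no call changed: Mcpt4 was -1.47 at 6 h and -1.19 at 24 h, Cpa3 -1.06 and Ms4a2 -0.65 at 6 h, the 6 h median was -0.74, and for 24 h minus 6 h, 3 differences were negative, with Cma1 at 0.25 and Ms4a2 at 0.15. Tpsab1 had no value under the stricter filter. Of the 5 genes nearest by profile, 1 remained with scaled profiles. The cause of these shifts was not tested. Dim genes are limited by the floor: Hdc and Fcer1a could not be compared. The size of the 24 h differences of Mcpt4, Cma1, Cpa3 and Tpsb2 was set by 24 h replicate 4, as was the sign of that of Ms4a2. Leaving out a 24 h array cannot undo the separation of Mcpt4 and Kit from vehicle, so it does not check that separation.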
